A study of Mus musculus with 6 samples.

Results

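The genes described here are 10 feedback targets of Wnt/beta-catenin signalling, Axin2, Nkd1, Notum, Sp5, Rnf43, Znrf3, Lgr5, Tnfrsf19, Tcf7 and Lef1. They were taken as a fixed list of symbols, chosen with earlier results of these data known. All 10 were found among the 54446 genes of the deposited mouse table. All 10 also passed the filter on low counts that left 15368 genes for testing. Lef1 passed it only through the later weeks, since its week 0 libraries held 4 and 0 counts. Liver cells of mice were profiled by poly-A RNA sequencing at weeks 0, 2 and 7 of a treatment named in the series title as MET/CAT with SB transposase, with 2 libraries from each week. The labels do not expand CAT and do not say whether the week 0 mice received anything. The strain of the first week 0 library is given as mixed from FVB/N and C57BL/6, and the number after C57BL/ differs in each of the other labels. Nothing states that the libraries of a week came from separate animals, so p-values measure the spread between these libraries. Age is not given.

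In Wnt signalling, ligand binding to Frizzled and LRP receptors stops a cytoplasmic complex built on Axin from marking beta-catenin for destruction. Beta-catenin then enters the nucleus and activates genes through DNA-binding partners of the TCF/LEF family. Several of these genes encode proteins that dampen the same pathway, which makes them a widely used readout of its activity. In liver, Wnt and R-spondin ligands come largely from endothelial cells of the central vein, and hepatocytes around that vein carry the strongest pathway activity.

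Library totals ran from 49353453 to 58434358 deposited counts, and about 4 deposited counts appear to correspond to a read pair. The week 2 libraries were female by their transcripts and the others male. Xist, the X-inactivation RNA, was counted 10 and 15 times at week 0, with 13236 and 12804 counts in the libraries of week 2 and 0 counts in both of week 7. Ddx3y, on the Y chromosome, had 0 counts in both week 2 libraries, against at least 1897 in every other library. Week 7 against week 0 is therefore the comparison without a difference in sex. In week 2 against week 0 and week 7 against week 2, time and sex cannot be told apart, and this holds for every statement below about a plateau or a further rise. No untreated library of weeks 2 or 7 is included, so treatment cannot be told apart from age. Levels are given as counts per 1000000 library counts (CPM), scaled between libraries with TMM. Errors written with ± are standard errors of log2 differences from 2 libraries a week.

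All 10 genes rose between week 0 and week 7, by 2.08-fold (Znrf3) to 13.7-fold (Nkd1) among the 9 genes with more than a read pair at week 0. In the edgeR fit of all 15368 genes, 7.58% were called higher and 6.23% lower at week 7 against week 0 (adjusted p under 0.05). At week 2 against week 0, 8 of the 10 genes were called higher, where 9.81% of all genes were, and Notum and Znrf3 were not called. Lef1 is counted as higher against week 0 at both later weeks. Since it passed the filter only through those weeks, it could hardly be called other than higher. Between week 2 and week 7 a further rise was called for Lgr5, Tnfrsf19, Rnf43, Notum and Nkd1, where 10.1% of all genes were called higher. None of the 10 was called lower in any of the 3 comparisons, with edgeR, DESeq2 or limma voom or at an unadjusted edgeR p under 0.05 (0 genes each). Among all genes, 8.81% were called lower at week 2 against week 0 and 9.73% at week 7 against week 2. The median log2 difference of the 10 genes was 2.29 at week 7 against week 0, beside 0.002 for all genes tested.

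Every week 7 library lay above every week 0 library for 10 of 10 genes, as it did for 28.2% of all genes tested. The week 2 libraries lay above those of week 0 for 9 of 10 genes (31.4% of all genes), Znrf3 being the exception. Both counts include Lef1, which passed the filter only through the later weeks. The week 7 libraries lay above those of week 2 for 8 of 10 (30.3% of all genes), Axin2 and Sp5 being the exceptions.

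**Figure D1:**
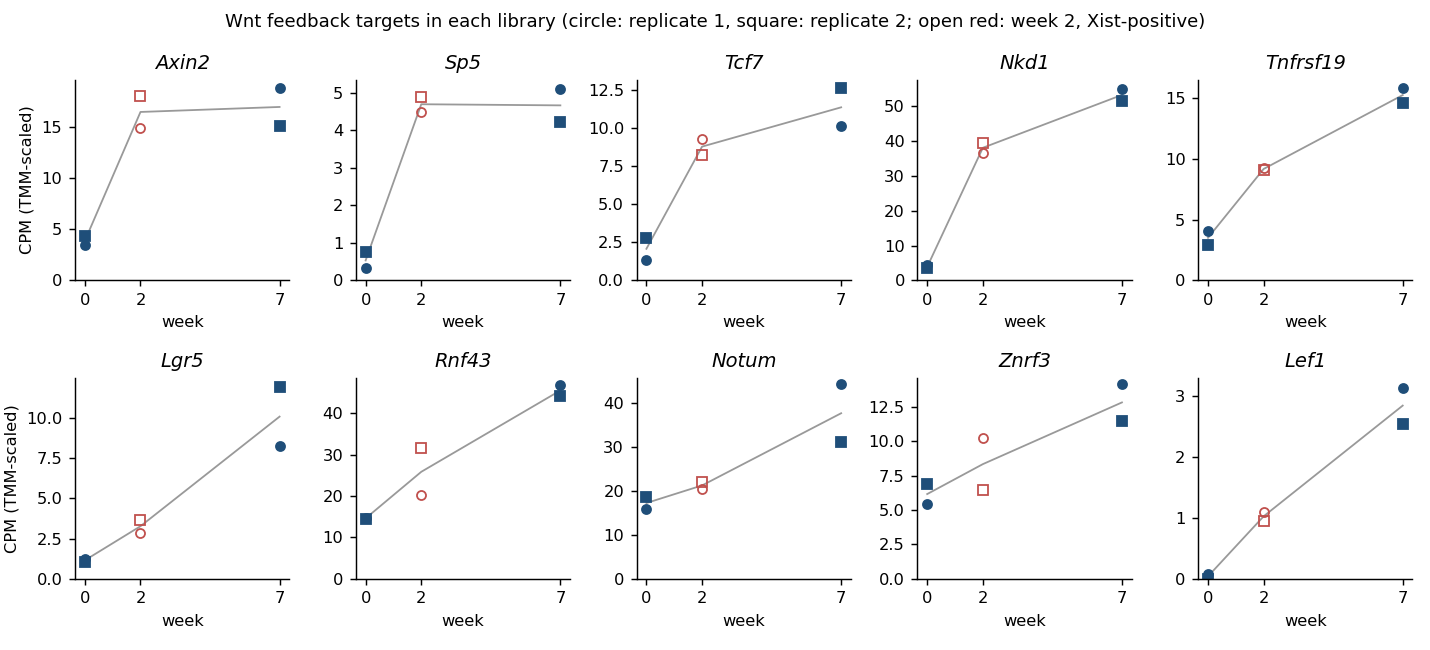
TMM-scaled CPM of the 10 genes by week, 1 panel per gene with its own axis from 0. Points are single libraries (circle, replicate 1; square, replicate 2; open red, the Xist-positive week 2 libraries) and the grey line joins the means. Axin2 and Sp5 stand at week 7 where they stood at week 2, while Lgr5 stands 3.08-fold above its week 2 mean.

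TCF/LEF proteins bind a short DNA core, so the start-site sequences of the genes were read for it. RefSeq (build GRCm38.p6) promoter windows of 300 bases, from 250 bases before to 50 after a transcript start, were matched by symbol for 7 of the 10 genes in 13 windows. Notum, Znrf3 and Lgr5 had no entry. The letters searched were CTTTGAT and CTTTGTT on both strands (ATCAAAG and AACAAAG on the other). They occurred in the windows of 2 of the 7 genes, Sp5 and Tnfrsf19, and in 9.33% of all 32851 windows (10.6% of genes). The 250 bases before the start are shown for these 2 genes and for Axin2, the most used readout of the pathway. Capitals mark the matched letters.

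Sp5 (chr2:70474673-70474922, plus strand): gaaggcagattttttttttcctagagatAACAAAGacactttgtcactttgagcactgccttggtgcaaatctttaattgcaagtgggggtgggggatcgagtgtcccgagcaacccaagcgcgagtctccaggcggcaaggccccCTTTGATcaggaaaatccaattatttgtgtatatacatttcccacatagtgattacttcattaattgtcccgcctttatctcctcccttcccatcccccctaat

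Tnfrsf19 (chr14:61037988-61038237, minus strand, the second of its start sites): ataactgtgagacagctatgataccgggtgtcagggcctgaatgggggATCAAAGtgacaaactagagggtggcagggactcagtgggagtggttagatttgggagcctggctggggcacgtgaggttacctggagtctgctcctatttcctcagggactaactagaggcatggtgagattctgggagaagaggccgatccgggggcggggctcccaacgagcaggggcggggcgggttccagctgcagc

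Axin2 (chr11:108920099-108920348, plus strand): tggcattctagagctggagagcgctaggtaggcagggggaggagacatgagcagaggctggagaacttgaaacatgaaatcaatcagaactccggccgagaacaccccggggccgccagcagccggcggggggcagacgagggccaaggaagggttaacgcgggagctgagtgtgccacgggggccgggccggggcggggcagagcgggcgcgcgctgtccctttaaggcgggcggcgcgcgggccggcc

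Sp5 carried AACAAAG from 222 to 216 bases and CTTTGAT from 104 to 98 bases before its start. Tnfrsf19 carried ATCAAAG from 202 to 196 bases before its start. Axin2, Nkd1, Rnf43, Tcf7 and Lef1 held none of these letters in the windows read, which cover only the bases next to the start. A match describes the sequence and does not show binding.

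Axin2 and Nkd1 act inside the cell. Axin2 (ENSMUSG00000000142, chromosome 11) is a scaffold of the complex that destroys beta-catenin. It had 3.45 and 4.31 CPM at week 0, 14.9 and 18.1 CPM at week 2, and 18.9 and 15.1 CPM at week 7. The week 2 and week 7 libraries overlapped and all 4 lay above week 0. The log2 difference was 2.13 ± 0.19 at week 7 against week 0 (adjusted p = 0.000155) and 0.04 ± 0.18 at week 7 against week 2 (adjusted p = 0.91). Nkd1 (ENSMUSG00000031661, chromosome 8) encodes a protein that binds Dishevelled and inhibits the pathway. It had 4.35 and 3.44 CPM at week 0, 36.6 and 39.5 CPM at week 2, and 55.0 and 51.4 CPM at week 7. The 3 weeks did not overlap, and most of the rise was present at week 2. The step at week 2 against week 0 was 3.29 ± 0.13 (adjusted p = 3.02e-07) and the step at week 7 against week 2 was 0.48 ± 0.11 (adjusted p = 0.0172), both on the log2 scale.

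Notum (ENSMUSG00000042988, chromosome 11) encodes a secreted esterase that inactivates Wnt ligands by removing their lipid. It had 15.8 and 18.7 CPM at week 0, 20.5 and 22.1 CPM at week 2, and 44.3 and 31.1 CPM at week 7. The week 2 libraries lay just above week 0, and the week 7 libraries lay above both and apart from each other. Week 2 against week 0 was not called (log2 difference 0.30, 95% interval -0.10 to 0.70, adjusted p = 0.287). Week 7 was called against week 0 (1.13 ± 0.17, adjusted p = 0.00462) and against week 2 (0.83 ± 0.17, adjusted p = 0.0125).

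Rnf43 and Znrf3 encode related membrane ubiquitin ligases that remove Frizzled receptors from the cell surface. Rnf43 (ENSMUSG00000034177, chromosome 11) had 14.8 and 14.4 CPM at week 0, 20.2 and 31.6 CPM at week 2, and 46.9 and 44.2 CPM at week 7. Its week 2 libraries stood far apart, between those of the other weeks. Its log2 steps were alike, 0.82 ± 0.20 at week 2 against week 0 (adjusted p = 0.0369) and 0.82 ± 0.20 at week 7 against week 2 (adjusted p = 0.0344). Znrf3 (ENSMUSG00000041961, chromosome 11) had 5.43 and 6.90 CPM at week 0, 10.2 and 6.45 CPM at week 2, and 14.2 and 11.5 CPM at week 7. The week 2 libraries overlapped with week 0, and only week 7 against week 0 was called (1.06 ± 0.24, adjusted p = 0.0231). Its log2 difference at week 7 against week 2 was 0.62 (95% interval 0.07 to 1.17, adjusted p = 0.112).

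Lgr5 and Tnfrsf19 encode surface receptors. Lgr5 (ENSMUSG00000020140, chromosome 10) binds R-spondins, which keep Rnf43 and Znrf3 away from Frizzled, and marks stem cells of mouse intestine. It had 1.26 and 1.04 CPM at week 0, 2.87 and 3.68 CPM at week 2, and 8.24 and 11.95 CPM at week 7. The 3 weeks did not overlap, and the steps were similar, 1.51 ± 0.27 (adjusted p = 0.00518) at week 2 against week 0 and 1.62 ± 0.26 (adjusted p = 0.00234) at week 7 against week 2. Tnfrsf19 (ENSMUSG00000060548, chromosome 14), a member of the TNF receptor superfamily also called Troy, had 4.07 and 2.94 CPM at week 0, 9.27 and 9.07 CPM at week 2, and 15.9 and 14.6 CPM at week 7. Its libraries separated by week, with log2 steps of 1.39 ± 0.19 at week 2 against week 0 (adjusted p = 0.000921) and 0.73 ± 0.18 at week 7 against week 2 (adjusted p = 0.0198).

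Sp5, Tcf7 and Lef1 encode DNA-binding proteins. Sp5 (ENSMUSG00000075304, chromosome 2), a zinc-finger factor of the Sp family, had 0.321 and 0.746 CPM at week 0, 4.50 and 4.90 CPM at week 2, and 5.11 and 4.23 CPM at week 7. It rose 8.81-fold by week 2 (adjusted p = 0.000455), and its week 7 libraries lay on either side of those of week 2 (log2 difference -0.009, adjusted p = 0.991). Tcf7 (ENSMUSG00000000782, chromosome 11), which encodes TCF1, had 1.36 and 2.80 CPM at week 0, 9.32 and 8.27 CPM at week 2, and 10.1 and 12.6 CPM at week 7. The week 7 libraries lay above those of week 2, with a log2 difference that missed the threshold (0.37 ± 0.29, adjusted p = 0.448), and both weeks were called against week 0 (adjusted p = 0.00285 at week 2 and 0.002 at week 7).

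Lef1 (ENSMUSG00000027985, chromosome 3) had the lowest counts of the list. It had 0.080 and 0 CPM at week 0, 1.10 and 0.945 CPM at week 2, and 3.13 and 2.54 CPM at week 7. The week 0 value rests on about 1 read pair over both libraries, against about 30 at week 2 and 75 at week 7. The ratio of scaled read pairs was 24.7 at week 2 against week 0 (exact 95% interval 4.11 to 1008) and 70.03 at week 7 against week 0 (12.2 to 2802). The intervals hold for counting error alone, since PCR copies of a molecule cannot be recognised. Both comparisons with week 0 were called by edgeR (adjusted p = 0.00377 and 0.00127), the first not by limma voom (adjusted p = 0.0724). At week 7 against week 2 Lef1 was 2.77-fold higher, with an adjusted p of 0.102 in edgeR, 0.0258 in DESeq2 and 0.0134 in limma voom.

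Which genes level off after week 2 was asked in 3 ways: by the interval of the late step, by a test of the early step minus the late step, and by the share of the week 7 rise already present at week 2. For Axin2, Sp5 and Nkd1 the 95% interval of week 7 over week 2 lay within 2-fold, at 0.781 to 1.36, 0.601 to 1.64 and 1.17 to 1.67. For Tcf7 it reached from 0.81 to 2.07. For Lgr5 it lay wholly above 2-fold, at 2.06 to 4.61. The intervals of Lgr5 and of Axin2, Sp5 and Nkd1 did not overlap, and the difference between genes was not itself tested.

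**Figure D2:**
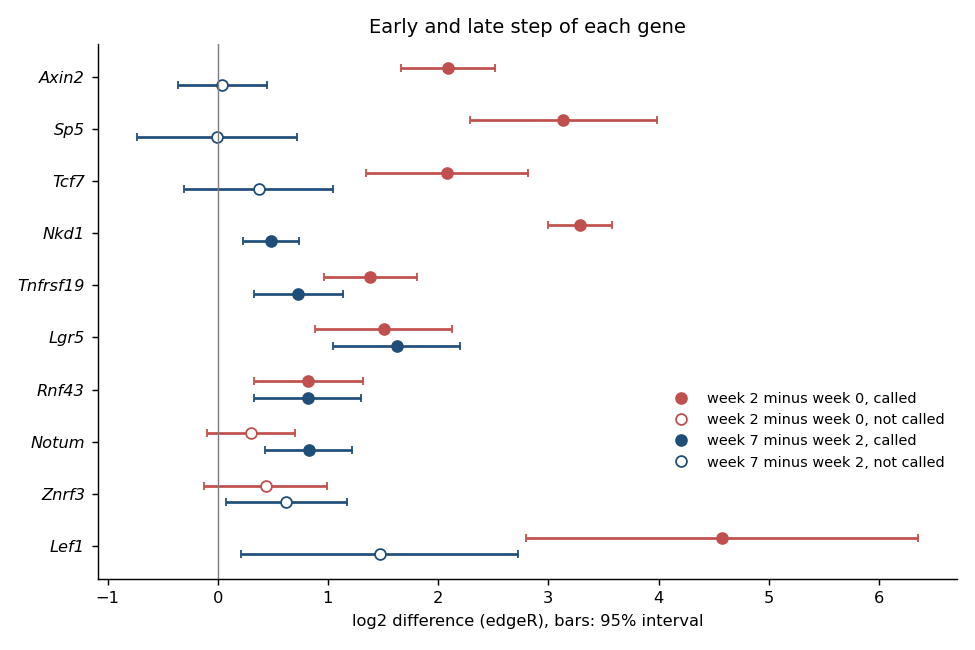
Log2 difference of each gene at week 2 minus week 0 (red, upper) and week 7 minus week 2 (blue, lower), with 95% intervals from the edgeR fit; filled points were called and open points were not. For Axin2 and Sp5 the late step lies at 0, and for Lgr5 and Rnf43 both steps are of similar size. The late step spans more weeks than the early step.

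The early step exceeded the late step for 4 of the 10 genes, where the same was called for 11.3% of all genes and the opposite for 9.92%. These were Nkd1 (difference of steps 2.80 ± 0.19 on the log2 scale, adjusted p = 1.37e-05), Axin2 (2.05 ± 0.30, adjusted p = 0.00144), Sp5 (3.15 ± 0.56, adjusted p = 0.00431) and Tcf7 (1.71 ± 0.50, adjusted p = 0.0473). Nkd1 thus met both descriptions, with a late step that was called and smaller than its early step. Lef1 had a difference of steps of 3.11 ± 1.10 (adjusted p = 0.0802), which was called by DESeq2 (0.029) and not by limma voom (0.204). Without week 0 replicate 1, which held all of its week 0 counts, the difference was 7.335. Since Lef1 passed the filter only through the later weeks, its early step could hardly be other than a rise. For Lgr5, Rnf43, Znrf3, Notum and Tnfrsf19 the difference of steps was not called, with values of -0.12 ± 0.45, 0.007 ± 0.34, -0.19 ± 0.42, -0.53 ± 0.30 and 0.65 ± 0.31.

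On the CPM scale, 100.7% of the week 7 rise of Sp5 and 96.2% of that of Axin2 were present at week 2. Tcf7 and Nkd1 followed with 72.2% and 69.3%, and Tnfrsf19 had 48.3%. Rnf43, Lef1, Znrf3, Lgr5 and Notum had 36.4%, 35.2%, 32.6%, 23.8% and 19.6%. Over the 8 ways of taking 1 library per week, the shares of Axin2 and Sp5 stayed at or above 72.7% and those of Lgr5, Notum and Lef1 at or below 43.3%. The share of Znrf3 ranged from -9.92% to 79.2% so its place in this order is not fixed.

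**Figure D3:**
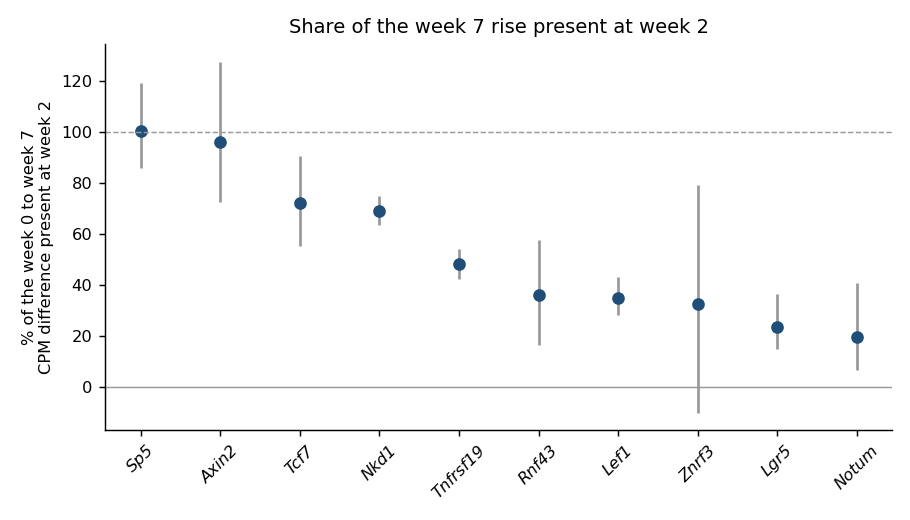
Share of the week 0 to week 7 CPM difference that was present at week 2, in percent, for each gene. Points use the means of 2 libraries and lines span the 8 choices of 1 library per week; the dashed line marks 100%, and Sp5 and Axin2 lie next to it.

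Of the 5 calls of a further rise after week 2, that of Lgr5 held whichever library was left out, and the other 4 did not. Every fit without 1 library has fewer degrees of freedom, so a lost call need not mean that the estimate moved. Without 1 library of week 2 or week 7, the log2 difference of Nkd1 was 0.432 to 0.538, against 0.483 with all. That of Rnf43 was 0.817 without either library of week 0, against 0.816. That of Notum was 0.549 without week 7 replicate 1, against 0.827. Without week 2 replicate 1 or 2 or week 7 replicate 1 or 2, Nkd1 had adjusted p-values of 0.109, 0.0577, 0.107 and 0.0537, and Tnfrsf19 had 0.09, 0.101, 0.107 and 0.0631. Notum lost its call without week 2 replicate 1 or 2 or week 7 replicate 1 (0.0993, 0.0694 and 0.0515). Rnf43 lost it without either library of week 0 (0.0918 and 0.0947) or week 7 (0.147 and 0.12), with total counts only (0.0532), with no filter (0.0535) and with only the libraries compared (0.0866). Znrf3 gained a call without week 2 replicate 1 (0.039), and Lef1 without week 0 replicate 1 or 2 (0.0266 and 0.0259), with only the libraries compared (0.0186) and with counts divided by 4 (0.0209).

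Other calls were also lost in some alternatives. At week 7 against week 0, Znrf3 was not called without week 0 replicate 1 or 2 or week 7 replicate 1 or 2 (0.144, 0.0576, 0.134 and 0.0528), nor was Rnf43 without week 0 replicate 1 or 2 (0.0542 and 0.0576). At week 2 against week 0 Rnf43 had an adjusted p of 0.181 and 0.197 without week 0 replicate 1 or 2, 0.0735 and 0.0777 without week 7 replicate 1 or 2, 0.0836 with limma voom, 0.0554 with no filter and 0.0572 with only the libraries compared. The replicate block gave it 0.0501. The difference of steps of Tcf7 lost its call without either library of week 2 (0.248 and 0.158) or week 7 (0.133 and 0.0815). Those of Axin2, Sp5 and Nkd1 were called in every alternative that was run.

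Levels of different genes were compared per length of all their annotated exons merged, which can exceed that of the transcripts expressed. The order of the genes can thus depend in part on the annotation. Per kilobase, the order at week 7 was Notum (15.7 CPM per kb), Nkd1 (11.7), Rnf43 (6.95), Tcf7 (4.34), Tnfrsf19 (3.22), Axin2 (3.09), Sp5 (2.22), Znrf3 (1.63), Lgr5 (0.984) and Lef1 (0.323). At week 0 Notum (7.17 CPM per kb) and Rnf43 (2.23) stood highest, and the other 8 lay at or below 0.855. At week 0 Nkd1, at 0.855 CPM per kb, stood next to Tcf7 (0.793), Znrf3 (0.781), Tnfrsf19 (0.740) and Axin2 (0.7045). At week 2 it stood beside Notum, with 8.35 CPM per kb for Nkd1 and 8.83 for Notum. Neighbours such as Tnfrsf19 and Axin2 at week 7 differed by less than the spread between libraries.

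None of the close relatives of these genes that could be tested was called. Of the 7 relatives listed, Sp8 and Lgr6 had 0 counts in all libraries. Of the 5 tested, 0 were called in any comparison by edgeR, DESeq2 or limma voom. At an unadjusted p under 0.05, 1 was higher at week 2 against week 0 and 1 lower at week 7 against week 2. Of all genes, 7.58% were called higher and 6.23% lower at week 7 against week 0. A count of 0 of 5 therefore does not set the relatives apart from all genes. Axin1, the constitutive Axin, had 29.9 and 31.6 CPM at week 7, against 27.6 and 31.95 CPM at week 0 (log2 difference 0.05, 95% interval -0.23 to 0.32). Lgr4, another R-spondin receptor gene, had 44.98 and 51.7 CPM at week 7, against 42.3 and 44.9 CPM at week 0 (0.15, interval -0.06 to 0.36). For these 2 genes the interval excludes a change as large as that of Axin2 or Lgr5.

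Tcf7l2, which encodes a TCF factor of adult epithelia, had 6.69 and 7.73 CPM at week 7, against 6.27 and 4.06 CPM at week 0 (0.48, interval -0.11 to 1.07). Tcf7l1, mostly a repressor, had 3.47 and 2.92 CPM at week 0, 5.79 and 6.01 CPM at week 2, and 4.67 and 2.17 CPM at week 7. Its difference at week 2 against week 0 was called without week 7 replicate 1 or 2 (adjusted p = 0.0306 and 0.0273) and with only the libraries compared (0.0294), but not otherwise (0.108 with all libraries). At week 7 against week 2 it was called lower without week 7 replicate 1 (0.0162). Nkd2 lay at or below 0.528 CPM in every library, and its interval at week 7 against week 0 was wide (-1.97 to 3.55).

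Other genes of the pathway were counted at week 7 against week 0. Among all genes tested, 7.58% were called higher and 6.23% lower there. Of 9 pericentral liver targets, 8 were called higher and 0 lower, with a median log2 difference of 1.45. Glul, which encodes glutamine synthetase, had 332 and 349 CPM at week 0, 1211 and 1205 CPM at week 2, and 1559 and 1561 CPM at week 7. Slc1a2, a glutamate transporter gene, had 292 and 302 CPM at week 7, against 59.5 and 56.8 CPM at week 0. Of 9 tested targets described in other tissues, 3 rose and 1 fell (2 fell with DESeq2). Myc (13.3 and 12.2 CPM at week 7, 2.89 and 2.61 CPM at week 0) and Prox1 (93.3 and 92.2 CPM, 66.3 and 68.1 CPM) were among those that rose. Ccnd1, the gene of cyclin D1, fell to 43.2 and 44.0 CPM at week 7, against 120.9 and 123.7 CPM at week 0.

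Of 8 tested secreted and surface antagonists 3 rose and 0 fell. Apcdd1 and Sfrp2, among those that rose, passed the filter on low counts only through the later weeks. A call of these genes against week 0 could therefore hardly be other than higher. Apcdd1 had 20.1 and 19.1 CPM at week 7, against 0.080 and 0 CPM at week 0. Sfrp2 had 11.3 and 9.62 CPM at week 7, against 0 counts at week 0. At week 2 these genes had at most 0.405 and 0.284 CPM, far below week 7. Both were still called higher at week 2 against week 0 by edgeR, though not by limma voom (adjusted p = 0.204 for Apcdd1 and 0.114 for Sfrp2) or with only the libraries compared (0.205 and 0.0873), and Apcdd1 not without week 2 replicate 2 (0.0546).

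Most receptor, core and ligand genes were not called at week 7 against week 0, where 7.58% of all genes were called higher and 6.23% lower. Of 11 tested receptor genes 3 rose and 0 fell, where DESeq2 called 1 lower, limma voom 0, and 1 was lower at an unadjusted edgeR p under 0.05. Lrp5 had 60.3 and 58.6 CPM at week 7, against 36.1 and 38.0 CPM at week 0, and Fzd7 had 24.5 and 22.2 CPM, against 13.4 and 14.6 CPM. Fzd7 lost its call without week 0 replicate 1 or week 7 replicate 1 (adjusted p = 0.0632 and 0.0672). Of 19 core and cofactor genes 4 rose and 0 fell, or 2 rose without week 0 replicate 1 or 2 or week 7 replicate 1, and without week 7 replicate 2 1 fell. Ctnnb1, which encodes beta-catenin, had 116 and 104 CPM at week 0, 126.9 and 119.7 CPM at week 2, and 201 and 163 CPM at week 7. It was called at week 7 against week 0 (log2 difference 0.72 ± 0.11, adjusted p = 0.00682) and not at week 2 against week 0 (0.16 ± 0.11, adjusted p = 0.371). The counts do not tell the mouse's own Ctnnb1 transcripts from those of any introduced copy.

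Bcl9l, a cofactor gene, had 54.5 and 38.5 CPM at week 7, against 22.1 and 24.7 CPM at week 0, and was not called without week 0 replicate 1 (adjusted p = 0.0703). Of 10 tested ligand genes 0 rose and 1 fell. Wnt4 fell to 0.482 and 1.19 CPM at week 7, against 2.97 and 3.13 CPM at week 0 (adjusted p = 0.0268). It was not called without week 0 replicate 1 or 2 or week 7 replicate 1 (0.0811, 0.0898 and 0.098). At week 7 against week 0 1 ligand gene was called higher by DESeq2 and 0 by limma voom, and 3 were higher at an unadjusted edgeR p under 0.05.

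**Figure D4:**
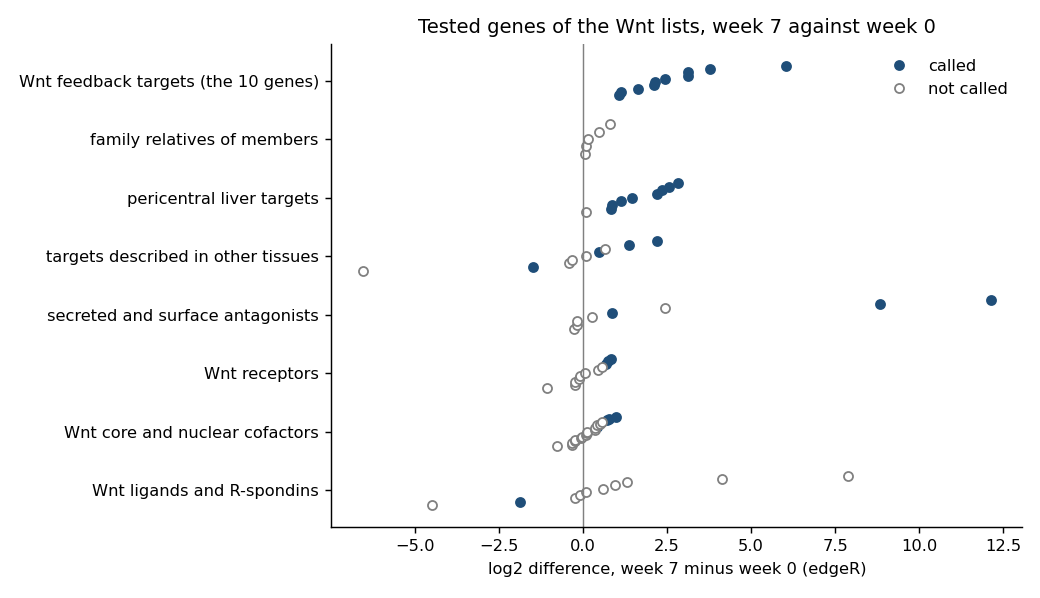
Log2 difference at week 7 minus week 0 of every tested gene of the Wnt lists, 1 row per list (filled, called; open, not called). The 10 feedback targets all lie above 1 and were all called higher, Lef1 having passed the filter only through the later weeks. Of all genes tested, 7.58% were called higher and 6.23% lower. None of the 5 tested relatives was called, which does not set them apart from all genes.

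The cell types in the libraries were read from marker lists, because Tcf7 and Lef1 are also T cell genes and a bulk library does not tell more cells of a type from more RNA per cell. The 7 matched hepatocyte markers summed to 99620 and 99290 CPM at week 0 and to 124900 and 118000 CPM at week 2. At week 7 they summed to 87410 and 86920 CPM. Alb held most of each sum, and the mean was highest at week 2 for 3 of these 7 markers. The 13 T and NK cell markers summed to 6.61 and 8.87 CPM at week 0, 15.6 and 14.7 CPM at week 2, and 5.93 and 8.43 CPM at week 7. None of them was at 0 in all libraries, and 0 of the 11 tested were called at week 7 against week 0 by edgeR, DESeq2 or limma voom or at an unadjusted p under 0.05. At week 7 the T and NK sum overlapped with that of week 0, while single markers moved both ways. Cd4, the largest at week 0 (mean 2.65 CPM), stood at 0.691-fold and Lck at 0.581-fold in week 7 over week 0. Klrb1c and Cd8a, with means of 0.198 and 0.317 CPM at week 7, stood at 3.81-fold and 1.95-fold. The median log2 difference of the 11 tested markers was 0.414, beside 0.002 for all genes. At week 2 the sum stood above both other weeks. The part of T and NK cells in the levels of Tcf7 and Lef1 was not tested at either week.

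The summed markers of the other cell types were also highest at week 2, but not every single marker was. The mean was highest at week 2 for 7 of 7 Kupffer cell, 10 of 10 endothelial, 6 of 9 stellate cell and fibroblast, 4 of 5 B cell and 3 of 6 bile duct markers. Among the exceptions, Lrat, a stellate cell gene, averaged 32.4 CPM at week 0, 21.8 CPM at week 2 and 7.41 CPM at week 7, and Reln averaged 33.1, 49.6 and 53.2 CPM. The 9 stellate cell and fibroblast markers summed to 252 and 255 CPM at week 0, 372 and 375 CPM at week 2, and 169.6 and 184 CPM at week 7. The 10 sinusoidal endothelial markers summed to 369.8 and 382 CPM at week 0, 484 and 455 CPM at week 2, and 344 and 356 CPM at week 7. The 7 Kupffer cell markers summed to 399.7 and 391 CPM at week 0, 538 and 541 CPM at week 2, and 290.1 and 284 CPM at week 7. Cldn4 was at 0 in all libraries among 6 bile duct markers, which summed to 17.0 and 18.2 CPM at week 0, 29.5 and 35.0 CPM at week 2, and 17.9 and 17.8 CPM at week 7. For 5 B cell markers the sums were 3.43 and 3.86 CPM at week 0, 8.91 and 9.96 CPM at week 2, and 6.87 and 5.57 CPM at week 7. Of these lists, only that of B cells had both week 7 sums above both week 0 sums. The part of other cells in the week 2 levels was not tested.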

How the data were processed

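Poly-A RNA of 6 mouse liver libraries was made into TruSeq V2 libraries and sequenced from both ends, per the labels' protocols. Bowtie 0.12.2 and build mm8 appear, without a role, in the submitters' processing notes. The counting program is not given in the sources used. The deposited values are estimated counts for each gene ID, and their totals differ between libraries, so the authors had not scaled them. All were whole, so rounding changed 0 of them. Low values are stepped, with 68.3% to 69.6% of values from 4 to 43 at or 1 above a multiple of 4, so a read pair is taken as about 4 counts. Values at or 1 above a multiple of 4 are common among whole numbers without any steps, so these percentages alone overstate the stepping. This step size is an inference from the values, and the read pairs given for Lef1 rest on it.

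Symbols were matched for 54409 of 54446 genes, and exon lengths and chromosomes were taken from GENCODE M21. Promoter sequences are RefSeq's. Since the build behind the counts is unsure, coordinates are given only for those sequences. The kit does not mark strand.

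Counts were fitted in R 4.3.3 with edgeR 4.0.16: filterByExpr on the weeks, TMM scaling, and a robust quasi-likelihood fit of all 6 libraries with 1 coefficient per week (3 residual degrees of freedom; biological coefficient of variation 0.209 over all genes). Tests were 2-sided, adjusted over 15368 genes by the Benjamini-Hochberg method and called under 0.05. The 4th contrast was the week 2 minus week 0 step less the week 7 minus week 2 step. A plain fold is a ratio of mean CPM. A step's standard error is its estimate over the root of F, and its 95% interval uses the t distribution. Alternatives were other scalings, filters, DESeq2 1.42.0, limma 3.58.1 voom, fewer libraries, a replicate block and counts divided by 4.

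Members, gene lists and tests were chosen with earlier results of these data known. All members and tested relatives are named. Of each other Wnt list, up to 2 called genes per direction by adjusted p at week 7 against week 0 are named.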

Additional observations from a re-analysis of the deposited data

How the results depend on the processing

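Over 16 alternatives, 584 of 630 recomputed differences of the 10 genes kept their side of the threshold, 37 lost a call and 9 gained one. Of those called in the edgeR fit with all libraries or in the alternative, 0 changed direction. Uncalled differences near 0 could change sign. The difference of steps of Rnf43 did so, at 0.007 in edgeR and -0.069 in limma voom. Over the 10 alternatives that leave out no single replicate, the number of the 10 genes called higher was 10 at week 7 against week 0, 6 to 8 at week 2 against week 0 and 4 to 6 at week 7 against week 2. Leaving out 1 library at a time, it was 8 to 10, 7 to 8 and 1 to 5. Those counts rest on fewer libraries and fewer degrees of freedom. The calls over all genes then numbered 1298 to 1856 at week 7 against week 0 (2123 with all libraries), 1801 to 2752 at week 2 against week 0 (2862), 1842 to 2961 at week 7 against week 2 (3040) and 1844 to 2869 for the difference of steps (3260).

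With total counts only, 68.7% of calls at week 2 against week 0 were higher, against 52.7% with TMM, and the median of all genes moved to 0.105 on the log2 scale, against 0.014. For the difference of steps these were 66.7% against 53.2%, with medians of 0.184 and 0.038. At week 7 against week 2 the split moved the other way, to 41.2% higher with total counts only and with upper-quartile scaling, against 50.8% with TMM (medians -0.059, -0.06 and -0.004). Differences of the replicate 1 and replicate 2 libraries were uncorrelated between weeks (-0.015 to -0.002), so the numbers do not pair the libraries. With the replicate block, 7 of the 10 genes were called at week 2 against week 0, with Rnf43 lost, and the counts of 10 and 5 in the other comparisons did not move. Depth limits Lef1 most, whose week 0 level is about 1 read pair.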

Other observations

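Ratios within a library do not depend on scaling between libraries. Lgr5 counts per Axin2 count were 0.366 and 0.2404 in the week 0 libraries, 0.192 and 0.203 in those of week 2, and 0.436 and 0.792 in those of week 7. Sp5 counts per Axin2 count were 0.0930 and 0.173 in the week 0 libraries, 0.302 and 0.2705 in those of week 2, and 0.271 and 0.280 in those of week 7, so the pair kept nearly the same proportion after week 2. Lef1 counts per Axin2 count were 0.166 and 0.168 in the week 7 libraries, against 0.0738 and 0.0522 in those of week 2. Notum gave 4.58 and 4.35 in the week 0 libraries, 1.37 and 1.22 in those of week 2, and 2.35 and 2.06 in those of week 7, the lowest proportion being at week 2. No test was run on these ratios, and 2 libraries a week cannot reach a small p in an exact test.

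Of the 10 genes, 5 lie on chromosome 11 (Axin2, Notum, Rnf43, Znrf3 and Tcf7), which holds 7.94% of the genes tested. Of these 5, Notum and Rnf43 were called higher at week 7 against week 2, and Axin2, Znrf3 and Tcf7 were not.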
